A study of Rattus norvegicus with 6 samples.

Results

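The axon guidance ligands and receptors are a set of gene families chosen by name from the deposited expression table: the semaphorins of classes 3 to 7, the plexins and neuropilins, the ephrins and Eph receptors, the Slits and Robos, netrins 1 and 4, Dcc and the Unc5 receptors. The rule took 67 of the 20422 genes in the table, and 64 of them had a mean of at least 10 counts over the 6 libraries. Poly(A) RNA was sequenced from primary cultures of oligodendrocytes, which make the myelin of brain and spinal cord, taken from 1-day-old (P1) rats. Cells of 3 libraries had been given phosphate-buffered saline (PBS) and cells of 3 libraries 0.01 mM water-soluble cholesterol, each for 12 h. Cholesterol is commonly made water-soluble by complexing it with a cyclodextrin, and cells given the carrier alone were not analysed here. Whether replicates were separate cultures or animals is not in the labels, and p-values here measure only how these libraries vary, which may be technical.

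Each library held 63769532 to 70878378 counts. Libraries differed more between groups than within them: the chi-square of their counts, divided by its degrees of freedom, was 8.65 to 20.07 within groups and 79.24 to 108.77 between them. How fragments were turned into counts is not in the labels, so these values do not settle whether replicates were duplicates of 1 library. All 13 oligodendrocyte markers read were above a mean of 1 FPKM (a fragment count scaled by gene length and library size, which allows levels of different genes to be compared). Their summed level lay between 5200 and 5310 FPKM with PBS and between 7890 and 8960 FPKM with cholesterol. Other cells were present as well, and most markers of astrocytes, microglia and neurons also passed 1 FPKM. A mean above 1 FPKM therefore does not tell these cell types apart. The 10 astrocyte markers summed to between 568 and 575 FPKM with PBS and between 805 and 867 FPKM with cholesterol, with 7 higher and 2 lower after cholesterol, and Aldh1l1 alone had a mean under 1 FPKM. The 14 microglial markers summed to between 219 and 229 FPKM with PBS and between 147 and 187 FPKM with cholesterol, with 10 lower and 1 higher and none under 1 FPKM. The 14 neuronal markers summed to between 270.0 and 286 FPKM with PBS and between 280.0 and 304 FPKM with cholesterol, with 1 higher and 1 lower, and the vesicular glutamate transporters Slc17a7 and Slc17a6 had means under 1 FPKM. Endothelial markers were near the floor, with 7 of the 9 in the table under 1 FPKM and a sum between 2.92 and 3.18 FPKM with PBS and between 2.22 and 2.75 FPKM with cholesterol. Of the 7 endothelial markers tested, 1 was higher and 1 lower. The fibroblast and mural markers summed to between 23.7 and 32.1 FPKM with PBS and between 24.2 and 30.4 FPKM with cholesterol. By the edgeR test that gave these marker counts, 20.5% of all genes tested were higher after cholesterol and 19.7% lower. In bulk libraries fewer cells of a type and less RNA per cell cannot be told apart, and the part of these other cells in the results below was not tested.

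Guidance cues steer growing axons and migrating cells by binding receptors that act on the cytoskeleton. Semaphorins signal through plexins, and the secreted class 3 members mostly need a neuropilin as a co-receptor. Ephrins and Eph receptors are both bound to membranes and signal in both directions on cell contact. Slits bind Robos, and netrin 1 attracts through Dcc and repels through Unc5 receptors. In the oligodendrocyte lineage these systems are known for guiding the migration of precursors, for shaping process outgrowth, and, in the case of several membrane semaphorins and ephrins, as inhibitors of axon growth that mature oligodendrocytes carry.

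After cholesterol, 5 of 9 plexins were called lower and 1 higher, and 4 of 8 ephrins were called higher and 1 lower. In all, 66.7% of the plexins and 62.5% of the ephrins were called, against 40.3% of all genes tested. The netrin receptors Dcc and Unc5b moved in opposite directions. Of the 63 described members that could be tested, edgeR called 14 higher and 20 lower (quasi-likelihood test, adjusted p under 0.05), and 29 did not pass. These calls made up 54.0% of the members tested, and 40.3% of all 16182 genes tested were called. By direction, 22.2% of the members were higher against 20.5% of all genes, and 31.7% were lower against 19.7% of all genes. The CPM values (counts scaled by library size with TMM) of the groups did not overlap for 41 members, 65.1%, against 52.3% of all genes. Robo4, at 0 in every cholesterol library, had passed the filter on low counts only through PBS. Without it 19 of 62 members were lower (30.6%). Of the 41 members whose groups did not overlap, in 20 the cholesterol libraries were higher (26.6% of all genes) and in 21, or 20 without Robo4, lower (25.7% of all genes). The median log2 fold change of the members was 0.041, against 0.0053 over all genes. Most called members changed by less than 2-fold. Plxnd1 rose by at least 2-fold, as did 2.16% of all genes, and Plxna3 and Robo3 fell by at least 2-fold, as did 1.45% of all genes. With each library scaled to its own median in place of TMM, the calls were 10 higher and 23 lower members.

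**Figure D1:**
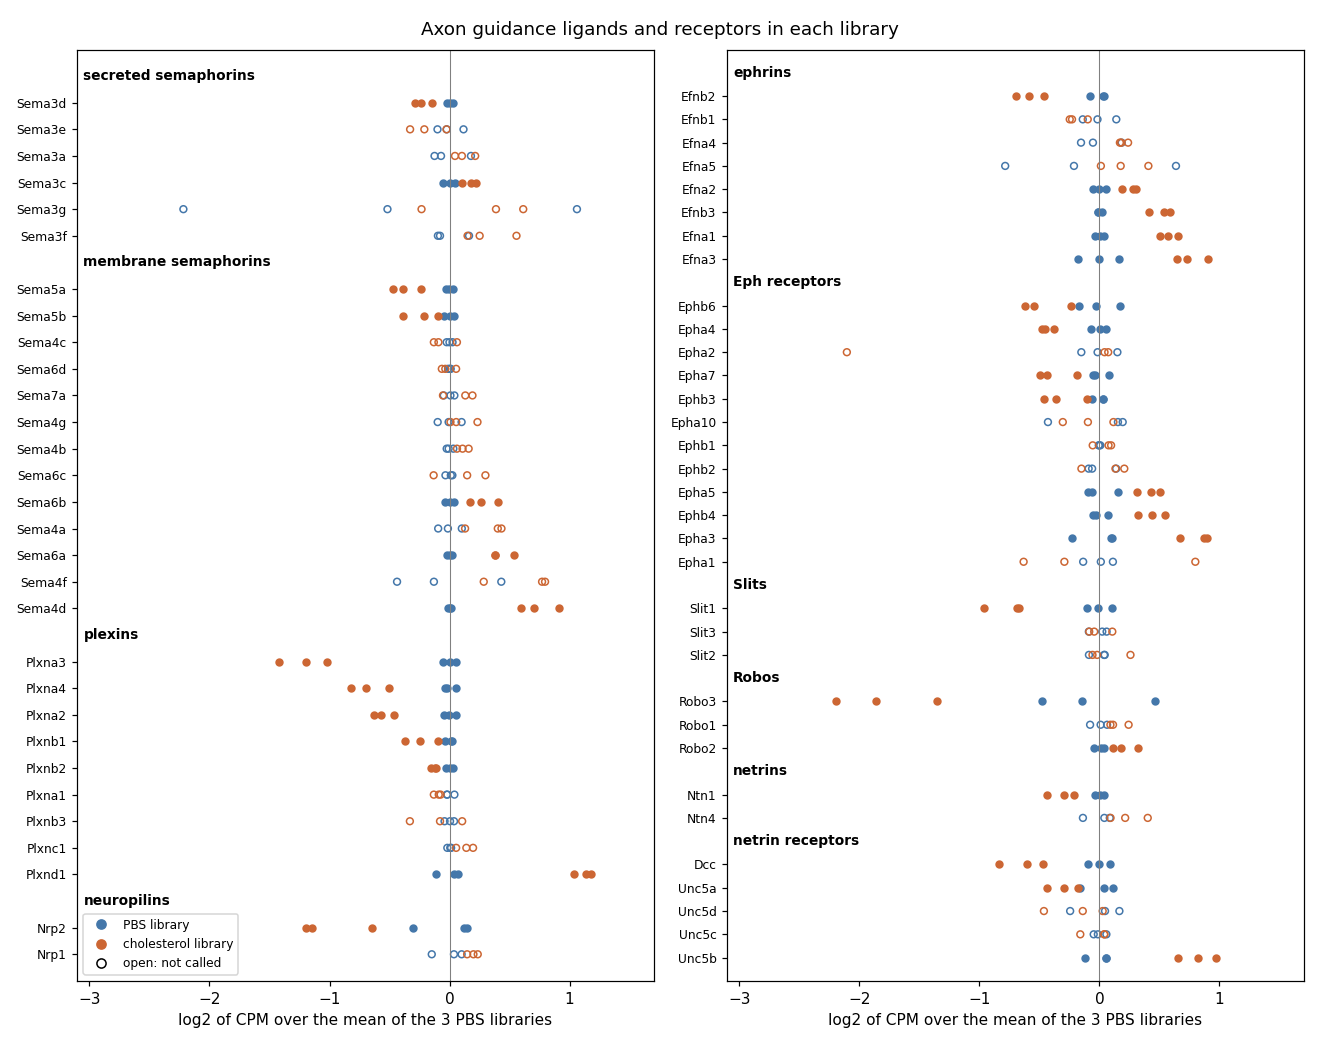
CPM of each member in each library, as log2 of its ratio to the mean of the 3 PBS libraries, in blue for PBS and orange for cholesterol. Filled points mark members called by edgeR's test and open points those not called or, for Epha1, not tested; Robo4, at 0 in every cholesterol library, is left out, and Plxna3 and Plxnd1 lie farthest from the PBS libraries among the plexins.

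Of the 31 receptors tested, 14 were lower and 6 higher, with a median log2 fold change of -0.13. Without Robo4 13 of 30 receptors were lower, with a median of -0.11. Of the 32 ligands, 6 were lower and 8 higher, with a median of 0.12. Over all genes tested, 19.7% were lower and 20.5% higher. The difference between the shares of receptors and ligands was not tested. The members were longer than most genes, and over the whole table length moved with the direction of change. The median length implied by the deposited counts and FPKM was 5380 bases for the members and 3159 for all genes tested. With all genes divided by length into 3 classes of equal size, the longest class had 32.4% of its genes lower and 17.1% higher, and the shortest 8.49% and 23.6%. The longest class held 46 of the members, 19 of them lower (41.3%, with Robo4 included) and 9 higher. With a correction for length 16 members were called higher and 17 lower. It ended the calls of the receptors Ephb3, Plxnb1 and Plxnb2, all lower, and of the ligand Efna2, which was higher. The receptors Plxnc1 and Robo1 and the ligand Sema4b then passed as higher. The part of length in single results was not tested.

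**Figure D2:**
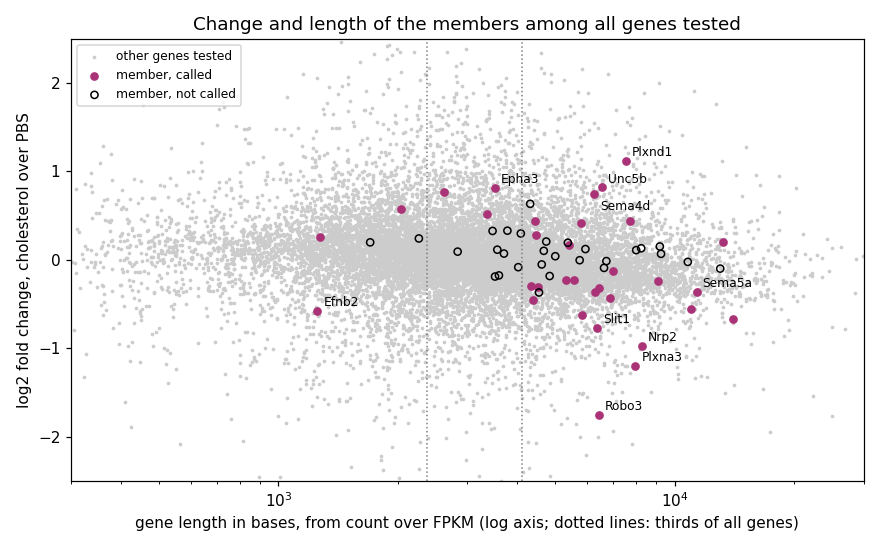
Log2 fold change of cholesterol over PBS against gene length on a log axis, for all genes tested (grey) and for the members (purple where called, open black where not). The dotted lines divide all genes into 3 equal classes by length, Robo4 and genes beyond the axes are not drawn, and 46 members lie in the longest class.

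The most abundant member per length was Plxnb3, a plexin that binds semaphorin 5A and is known in mice as a gene of the oligodendrocyte lineage. It stood at 131 ± 3.55 FPKM with PBS and 124 ± 18.9 with cholesterol (SD, n = 3). It was followed by 4 membrane semaphorins, Sema5a, Sema5b, Sema6a and Sema6d. In percent of the summed FPKM of all membrane semaphorins, these 4 made up 74.2, 73.5 and 73.7 with PBS and 69.3, 69.9 and 70 with cholesterol, and this share was lower in every cholesterol library. Sema3d, Plxnb2, Ntn1, Ephb1 and Sema3c came next, between 20.3 and 28.8 FPKM over the 6 libraries. Neighbours in this order were close: Sema5b stood at 44.8 ± 1.17 FPKM with PBS and 38.5 ± 4.0 with cholesterol, Sema6a at 33.4 ± 0.46 FPKM with PBS and 45.5 ± 2.63 with cholesterol and Sema6d at 32.95 ± 0.22 FPKM with PBS and 32.9 ± 1.23 with cholesterol. Sema6a lay below Sema5b with PBS and above it with cholesterol.

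**Figure D3:**
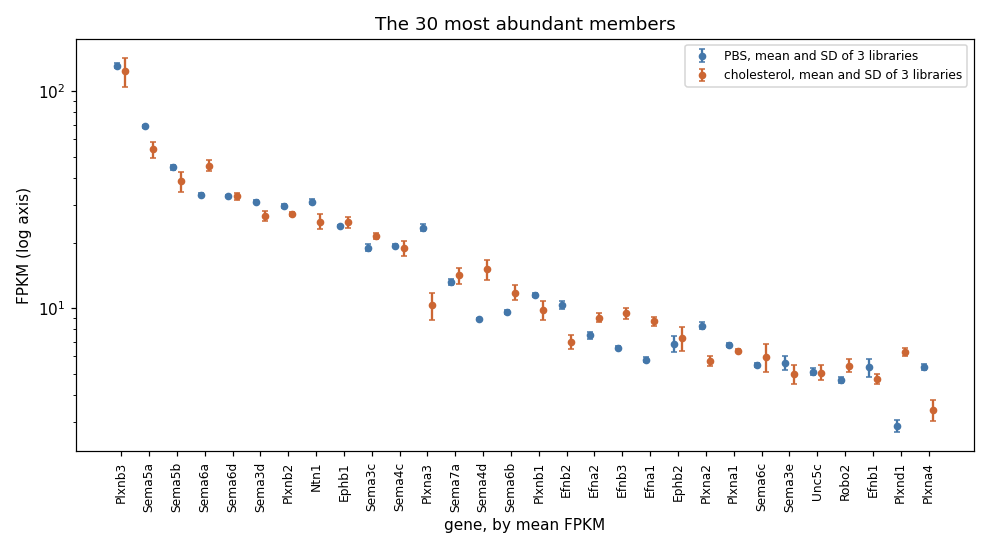
FPKM of the 30 members with the highest mean level, on a log axis, as mean and SD of the 3 libraries of each group. Plxnb3 is at the top in both groups, and the orange and blue points stand apart for Sema6a, Plxna3, Sema4d and Plxnd1.

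The secreted class 3 semaphorins are diffusible cues that mostly repel. Of 6 described, 1 was higher and 1 lower (33.3% called, against 40.3% of all genes), and their summed level was 58.9, 58.5 and 58.3 FPKM with PBS and 57.2, 55.8 and 56.8 FPKM with cholesterol. Sema3d was the most abundant, at 170.4, 173 and 176 CPM with PBS and 147, 142 and 156 CPM with cholesterol (log2 fold change -0.23 ± 0.042 SE, adjusted p = 0.00177). Every cholesterol library lay below every PBS library. Sema3c was measured at 107, 104 and 99.5 CPM with PBS and 120.3, 117 and 111 CPM with cholesterol (log2 fold change 0.17 ± 0.043 SE, adjusted p = 0.0106). Here the cholesterol libraries lay above the PBS libraries, but the call ended with median scaling (0.0707) and without PBS replicate 3 (0.0506), all as adjusted p. Sema3e, which binds plexin D1 without a neuropilin, overlapped between groups (-0.18, adjusted p = 0.121), and its difference passed with median scaling (0.0454) and without cholesterol replicate 1 (0.0394). Sema3a and Sema3f, known to act on migrating oligodendrocyte precursors, did not pass, with 13.1, 16.1 and 13.6 CPM with PBS and 15.3, 16.5 and 14.7 CPM with cholesterol for the former (log2 fold change 0.12 ± 0.096 SE, adjusted p = 0.343) and 1.91, 1.89 and 2.26 CPM with PBS and 2.24, 2.98 and 2.4 CPM with cholesterol for the latter (log2 fold change 0.33 ± 0.184 SE, adjusted p = 0.182). Both genes overlapped between groups. Sema3g was near the floor, with 10, 3 and 29 counts with PBS and 11, 18 and 20 with cholesterol (0.30, adjusted p = 0.777).

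Membrane semaphorins moved in both directions, and the abundant class 5 members fell while Sema4d, Sema6a and Sema6b rose. Of 13, 3 were higher, 2 lower and 8 not called (38.5% called, against 40.3% of all genes). Sema4d, a ligand of plexin B1 made by oligodendrocytes, was at 55.9, 56.7 and 56.5 CPM with PBS and 106, 91.5 and 84.9 CPM with cholesterol (log2 fold change 0.74 ± 0.070 SE, adjusted p = 2.59e-05). The PBS libraries differed little and every cholesterol library stood well above them. Sema6a, a ligand of plexins A2 and A4 that is needed for oligodendrocyte differentiation in mice, amounted to 255, 259.7 and 262 CPM with PBS and 376, 337 and 337 CPM with cholesterol (log2 fold change 0.43 ± 0.045 SE, adjusted p = 4.41e-05). Sema6b, another class 6 ligand of class A plexins, stood at 44.2, 42.2 and 43.2 CPM with PBS and 57.3, 48.5 and 51.9 CPM with cholesterol (log2 fold change 0.28 ± 0.063 SE, adjusted p = 0.00471). For both genes the groups did not overlap. Sema5a, the ligand of plexin B3 and an inhibitor of axon growth, fell from a higher level, with 804, 773 and 785 CPM with PBS and 601, 569 and 666 CPM with cholesterol (log2 fold change -0.36 ± 0.051 SE, adjusted p = 0.000312). Its paralog Sema5b was measured at 241, 233 and 246 CPM with PBS and 207, 183 and 224 CPM with cholesterol (log2 fold change -0.23 ± 0.063 SE, adjusted p = 0.0149). The groups were apart for both, but the call for Sema5b ended under quantile normalization (0.0553) and without PBS replicates 1 and 3 in turn (0.0521 and 0.0552), as adjusted p. Sema6d, which binds plexin A1, did not pass, at 224, 221 and 223 CPM with PBS and 231, 217 and 213 CPM with cholesterol (log2 fold change -0.014 ± 0.038 SE, adjusted p = 0.797), and its groups overlapped.

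Among the class 4 semaphorins, Sema4c, a ligand of plexin B2, stood at 19.5 ± 0.352 FPKM with PBS and 18.9 ± 1.45 with cholesterol (-0.052, adjusted p = 0.455) and passed only when cholesterol replicate 3 was left out (-0.11, adjusted p = 0.0489). Sema4a (0.33, adjusted p = 0.071) and Sema4b (0.11, adjusted p = 0.16) were above PBS in all 3 cholesterol libraries without passing. Sema4a passed without cholesterol replicate 2 (0.0332) and Sema4b with the length correction (0.0237), as adjusted p. Sema4f (0.63, adjusted p = 0.091) passed without PBS replicate 1 (0.0355), and Sema4g (0.10, adjusted p = 0.424) did not pass. Sema6c (0.12, adjusted p = 0.392) and Sema7a (0.093, adjusted p = 0.317), the latter held by a lipid anchor and known to bind plexin C1 and integrin beta 1, passed without cholesterol replicate 2, with adjusted p = 0.0416 and 0.0469. In the same libraries 10 of 14 microglial markers fell, as did 19.7% of all genes, and 7 of 10 astrocyte markers rose, as did 20.5%. The part of these cells in the semaphorin values was not tested.

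Plexins, the semaphorin receptors, fell in 5 of 9 cases and rose in 1 (66.7% called, against 40.3% of all genes). All 9 were in the longest class of genes, of which 32.4% were lower and 17.1% higher. Plxna3, a class A plexin that pairs with neuropilins to receive class 3 semaphorins, showed the largest fall of the family, with 195, 181 and 188 CPM with PBS and 82.3, 70.4 and 92.6 CPM with cholesterol (log2 fold change -1.20 ± 0.081 SE, adjusted p = 3.77e-06). Even the highest cholesterol library stayed far below the lowest PBS library. Plxna2 was at 95.6, 91.8 and 88.99 CPM with PBS and 66.8, 62.01 and 59.6 CPM with cholesterol (log2 fold change -0.55 ± 0.050 SE, adjusted p = 1.86e-05). Plxna4 amounted to 74.4, 78.5 and 73.6 CPM with PBS and 53.3, 46.5 and 42.6 CPM with cholesterol (log2 fold change -0.67 ± 0.072 SE, adjusted p = 6.13e-05). Both are receptors of semaphorin 6A as well, and both were lower in every cholesterol library, while Sema6a itself was higher. Plxna1 did not pass, at 91.3, 87.7 and 87.4 CPM with PBS and 84.3, 83.4 and 81.1 CPM with cholesterol (log2 fold change -0.099 ± 0.038 SE, adjusted p = 0.0603). It overlaps Chchd6 on the same strand, passed with DESeq2 size factors (0.0497) and with median scaling (0.00652) and turned to 0.031 with the length correction.

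Plxnd1 was the exception in direction. This receptor of semaphorin 3E, best known from blood vessels, stood at 22.2, 20.04 and 22.8 CPM with PBS and 49.2, 47.8 and 44.5 CPM with cholesterol (log2 fold change 1.12 ± 0.068 SE, adjusted p = 2.03e-06). All cholesterol libraries stood far above the PBS libraries. The endothelial markers summed to between 2.92 and 3.18 FPKM with PBS and between 2.22 and 2.75 FPKM with cholesterol. They did not move together. Of the 7 tested, Pecam1 was lower (mean 1.82 FPKM with PBS, 0.82 with cholesterol) and Cdh5 higher (0.047 and 0.135 FPKM). The part of endothelial cells in the Plxnd1 values was not tested. Within class B, Plxnb1 was measured at 107, 102 and 106 CPM with PBS and 88.4, 80.9 and 97.98 CPM with cholesterol (log2 fold change -0.24 ± 0.061 SE, adjusted p = 0.0111). Plxnb2 was at 203, 208 and 211 CPM with PBS and 187, 190.4 and 192 CPM with cholesterol (log2 fold change -0.13 ± 0.034 SE, adjusted p = 0.0117). Both were lower in every cholesterol library, by a small amount. The call for Plxnb1 ended with the length correction (0.0511) and that for Plxnb2 under quantile normalization (0.154), with the length correction (0.231) and without PBS replicate 3 (0.0567), as adjusted p. The Plxnb2 gene also contains the microRNA gene Mir349.

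Plxnb3, the most abundant member, amounted to 896, 876 and 849 CPM with PBS and 827, 695 and 939.8 CPM with cholesterol (log2 fold change -0.091 ± 0.084 SE, adjusted p = 0.428). The cholesterol libraries were spread more widely than the PBS libraries and overlapped them. Without cholesterol replicate 2 the difference turned to 0.016, and without cholesterol replicate 3 it was -0.20 with an adjusted p of 0.0311. Its share of the summed FPKM of all plexins was 59.2, 59.2 and 58.0 with PBS and 62.7, 59.6 and 65.3 with cholesterol, in percent. The summed level itself was 227, 222 and 219 FPKM with PBS and 198, 176 and 219 FPKM with cholesterol. Every cholesterol library lay below every PBS library in that sum, with cholesterol replicate 3 only just below PBS replicate 3. Plxnc1, the receptor of semaphorin 7A, was above PBS in every cholesterol library but did not pass (0.13, adjusted p = 0.0922), and it passed with the length correction (0.00707) and without cholesterol replicate 2 (0.0441), as adjusted p.

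The start regions of Plxna3 and Plxnd1 are shown because these paralogs had the largest fall and the largest rise among members above 1 FPKM. In the deposited table Plxna3 lies at chrX:152115819-152131603 on the plus strand and Plxnd1 at chr4:149002784-149043244 on the minus strand, with rn6 named as the build in the submitters' processing notes. The 250 bases before each start were read from RefSeq's GRCr8 promoter table, 5′ to 3′ on the gene's strand, at chrX:157266857-157267106 (plus strand) for Plxna3 and chr4:150715188-150715437 (minus strand) for Plxnd1. Capitals mark the motif CACCCCA, the core of a known site of the sterol-regulated SREBP factors.
Plxna3: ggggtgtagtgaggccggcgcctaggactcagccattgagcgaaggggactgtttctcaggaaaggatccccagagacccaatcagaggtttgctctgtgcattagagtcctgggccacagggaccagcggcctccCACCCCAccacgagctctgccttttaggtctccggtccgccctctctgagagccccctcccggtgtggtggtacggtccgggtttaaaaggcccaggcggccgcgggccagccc
Plxnd1: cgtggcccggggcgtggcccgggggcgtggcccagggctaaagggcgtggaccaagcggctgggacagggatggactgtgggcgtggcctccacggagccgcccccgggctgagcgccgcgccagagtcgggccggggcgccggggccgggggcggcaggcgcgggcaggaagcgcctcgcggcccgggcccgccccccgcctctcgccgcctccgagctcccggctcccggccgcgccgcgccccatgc
The Plxna3 stretch held the motif once and the Plxnd1 stretch did not hold it. The Plxnd1 stretch was richer in G and C, 83.2% against 64.4%, and held 37 CG dinucleotides against 13.

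Over the members, RefSeq promoters (250 bases before to 50 after the start) were matched for 52 of 67 genes, 50 of them among those described. Motifs were searched on both strands, and overlaps between them were allowed. CACCCCA was found in 6 of the 50 described members (12.0%) and in 6.9% of all 33469 promoters of that length. The 6 were Plxna3 and Dcc, which were lower, Unc5b, which was higher, Robo4, for which only counts are given, and Sema4b and Sema6c, which were not called. The E-box CACGTG was found in 3 (6.0%, against 6.4% of all), namely Efna5, Sema4b and Sema3e, none of them called. The Sox motif AACAAAG was found in Efna4 and Plxnb1 (4.0%, against 6.0%). These are matches of letters in a short window, and no binding was measured.

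Neuropilin 2, the co-receptor that class A plexins use for semaphorin 3F, fell, and neuropilin 1, which is used for semaphorin 3A, did not pass. Nrp2 stood at 48.95, 49.8 and 36.5 CPM with PBS and 20.4, 28.9 and 19.7 CPM with cholesterol (log2 fold change -0.97 ± 0.152 SE, adjusted p = 0.000605). PBS replicate 3 was the lowest of its group and cholesterol replicate 2 the highest of the treated group, yet the groups stayed apart. In these libraries the microglial markers had a median change of -0.70 on the log2 scale, with 10 of 14 lower against 19.7% of all genes. The part of microglia in the Nrp2 values was not tested. Nrp1 was measured at 5.2, 4.38 and 4.97 CPM with PBS and 5.71, 5.57 and 5.37 CPM with cholesterol (log2 fold change 0.19 ± 0.119 SE, adjusted p = 0.227). Its cholesterol libraries lay above the PBS libraries, and the gene contains the microRNA gene Mir1903. The ratio of Nrp2 to Nrp1 in FPKM was 6.14, 7.42 and 4.78 with PBS and 2.32, 3.38 and 2.39 with cholesterol.

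Of 8 ephrins, the membrane-bound ligands of Eph receptors, 4 were higher and 1 lower (62.5% called, against 40.3% of all genes). Their summed level was 37.4, 38.9 and 35.9 FPKM with PBS and 42.8, 41.3 and 40.3 FPKM with cholesterol, higher in every cholesterol library. Efna1, a lipid-anchored class A ephrin, was at 11.8, 12.1 and 11.5 CPM with PBS and 18.6, 16.8 and 17.6 CPM with cholesterol (log2 fold change 0.58 ± 0.076 SE, adjusted p = 0.000202). Its neighbour on chromosome 2, Efna3, amounted to 1.63, 1.83 and 1.44 CPM with PBS and 3.06, 2.71 and 2.56 CPM with cholesterol (log2 fold change 0.76 ± 0.180 SE, adjusted p = 0.00666). The groups did not overlap for either, while Efna4, which lies beside them, did not pass (0.20, adjusted p = 0.46). Efna2 stood at 9.25, 9.95 and 9.57 CPM with PBS and 10.9, 11.8 and 11.6 CPM with cholesterol (log2 fold change 0.26 ± 0.086 SE, adjusted p = 0.0363). It overlaps Cirbp on the same strand, and its call ended with median scaling (0.0935), under quantile normalization (0.109), with the length correction (0.21), without PBS replicates 1, 2 and 3 in turn (0.115, 0.058 and 0.0846) and without cholesterol replicates 2 and 3 in turn (0.0858 and 0.0774), as adjusted p. Efna5, which also overlaps another annotated gene on the same strand, varied widely among the PBS libraries, with 196, 106 and 71 counts with PBS and 151, 137 and 116 with cholesterol (0.21, adjusted p = 0.642), and its difference turned to -0.066 without PBS replicate 3.

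The transmembrane class B ephrins, which also signal into the cell that bears them, went in opposite directions. Efnb3, known as a myelin-borne inhibitor of axon growth, was measured at 22.1, 22.6 and 22.02 CPM with PBS and 33.5, 32.2 and 29.5 CPM with cholesterol (log2 fold change 0.52 ± 0.064 SE, adjusted p = 0.000148). Efnb2, the partner of EphB4 in blood vessels and a ligand of several Eph receptors elsewhere, was at 13.4, 13.3 and 12.3 CPM with PBS and 9.44, 8.63 and 8.05 CPM with cholesterol (log2 fold change -0.58 ± 0.093 SE, adjusted p = 0.000724). Both pairs of groups stood apart, and the ratio of Efnb3 to Efnb2 in FPKM was 0.614, 0.632 and 0.663 with PBS and 1.32, 1.39 and 1.36 with cholesterol. Efnb1 overlapped between groups (-0.19, adjusted p = 0.106), and its fall passed with median scaling (0.0373) and under quantile normalization (0.0456), as adjusted p.

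The Eph receptor tyrosine kinases were divided, with 3 higher, 4 lower and 4 not called of 11 tested (63.6% called, against 40.3% of all genes). The summed level of the Eph receptors was 46.7, 46.2 and 47.2 FPKM with PBS and 48.4, 43.9 and 49.4 FPKM with cholesterol. Those levels overlapped between groups. Epha3, a receptor of class A ephrins, rose most, with 4.52, 4.51 and 3.6 CPM with PBS and 7.86, 7.7 and 6.69 CPM with cholesterol (log2 fold change 0.82 ± 0.132 SE, adjusted p = 0.000724). Epha5, with the same ligand class, amounted to 11.3, 11.6 and 13.5 CPM with PBS and 17.3, 15.1 and 16.4 CPM with cholesterol (log2 fold change 0.42 ± 0.093 SE, adjusted p = 0.00494). Every cholesterol library exceeded every PBS library for both. Epha4, which binds ephrins of both classes, stood at 14.8, 16.1 and 15.6 CPM with PBS and 11.9, 11.3 and 11.1 CPM with cholesterol (log2 fold change -0.44 ± 0.079 SE, adjusted p = 0.00143). Epha7 was measured at 22.2, 20.4 and 20.6 CPM with PBS and 14.99, 15.6 and 18.5 CPM with cholesterol (log2 fold change -0.36 ± 0.089 SE, adjusted p = 0.00783). These receptors were lower in all cholesterol libraries, so class A receptors moved both ways.

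Ephb1 was by far the most abundant Eph receptor, at 24.04 ± 0.133 FPKM with PBS and 24.9 ± 1.39 with cholesterol (SD, n = 3), and did not pass (0.041, adjusted p = 0.497). Ephb2 did not pass either, at 24.5, 24.1 and 28.2 CPM with PBS and 29.6, 23.1 and 28.1 CPM with cholesterol (log2 fold change 0.071 ± 0.097 SE, adjusted p = 0.599), and its groups overlapped. Ephb6, which lacks kinase activity, was at 17.2, 13.5 and 14.9 CPM with PBS and 9.91, 10.4 and 12.9 CPM with cholesterol (log2 fold change -0.46 ± 0.121 SE, adjusted p = 0.0126). Its groups were apart, and its call ended without PBS replicate 1 (0.0624) and without cholesterol replicate 1 (0.0509), as adjusted p. Ephb3 amounted to 11.2, 11.3 and 10.6 CPM with PBS and 8.55, 7.98 and 10.2 CPM with cholesterol (log2 fold change -0.30 ± 0.108 SE, adjusted p = 0.0464). Its highest cholesterol library came close to the lowest PBS library, and the call ended with no filter on low counts (0.0704), on log2(FPKM + 1) (0.0809), on log2(FPKM + 0.1) (0.0881), with the replicate block (0.0559), with the length correction (0.0571), without PBS replicates 1, 2 and 3 in turn (0.12, 0.119 and 0.0708) and without cholesterol replicates 1 and 2 in turn (0.123 and 0.13). Ephb4, the partner of ephrin B2, stood at 2.71, 2.76 and 2.96 CPM with PBS and 3.81, 3.52 and 4.11 CPM with cholesterol (log2 fold change 0.44 ± 0.142 SE, adjusted p = 0.0301). It was higher in every cholesterol library, but the call ended with median scaling (0.0549), under quantile normalization (0.128), on log2(FPKM + 0.1) (0.0505), without PBS replicates 1, 2 and 3 in turn (0.0852, 0.0768 and 0.0512) and without cholesterol replicates 1 and 3 in turn (0.068 and 0.0854). Epha10, another receptor without kinase activity, which overlaps an uncharacterized gene on the same strand, did not pass (-0.083, adjusted p = 0.83), and Epha2 did not pass (-0.37, adjusted p = 0.622). Epha2 had 30, 36 and 32 counts with PBS and 7, 33 and 32 with cholesterol, and cholesterol replicate 1 alone was low.

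Of the Slits, the secreted ligands of Robo receptors, Slit1 fell and Slit2 and Slit3 did not pass. Slit1 was measured at 20.6, 19.1 and 17.9 CPM with PBS and 12.04, 9.87 and 11.9 CPM with cholesterol (log2 fold change -0.77 ± 0.097 SE, adjusted p = 0.000158). All cholesterol libraries lay below all PBS libraries. Slit2 was at 4.01, 4.39 and 4.38 CPM with PBS and 4.09, 5.1 and 4.21 CPM with cholesterol (0.068, adjusted p = 0.725) and Slit3 3.61, 3.35 and 3.71 CPM with PBS and 3.45, 3.83 and 3.35 CPM with cholesterol (-0.004, adjusted p = 0.985), with overlapping groups. Robo2, a main Slit receptor, amounted to 62.7, 63.9 and 60.3 CPM with PBS and 77.7, 70.5 and 67.4 CPM with cholesterol (log2 fold change 0.21 ± 0.055 SE, adjusted p = 0.0132). It was slightly higher in every cholesterol library, and the call ended with median scaling (0.0581), on log2(FPKM + 1) (0.0564), on log2(FPKM + 0.1) (0.0506) and without PBS replicate 3 (0.0536), as adjusted p. Robo1 leaned the same way without passing (0.15, adjusted p = 0.0865), and it passed with the length correction (0.0106). The summed level of all Robos was 8.15, 8.51 and 8.09 FPKM with PBS and 9.88, 9.02 and 8.87 FPKM with cholesterol.

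Robo3 and Robo4 were close to the floor of counting. Robo3, which controls the crossing of the midline and binds Slits poorly in mammals, had 77, 39 and 49 counts with PBS and 11, 21 and 14 with cholesterol (log2 fold change -1.75 ± 0.438 SE, adjusted p = 0.00919). The groups were apart, and its call ended on log2(FPKM + 1) (0.0666) and without PBS replicate 1 (0.0508), as adjusted p. Robo4, a receptor of vascular endothelium, had 22, 24 and 17 counts with PBS and 0, 0 and 0 with cholesterol. Robo4 and Epha8 passed the filter on low counts only through the PBS libraries and were bound to differ once they passed, so only counts are given for them.

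Netrin 1 and its attractive receptor Dcc fell together, and the repulsive receptor Unc5b rose. Ntn1, a secreted cue that acts on precursor migration and on oligodendrocyte processes, stood at 195, 201 and 205 CPM with PBS and 163, 148 and 172 CPM with cholesterol (log2 fold change -0.31 ± 0.053 SE, adjusted p = 0.000943). Dcc was measured at 14.1, 12.5 and 13.3 CPM with PBS and 8.73, 7.44 and 9.62 CPM with cholesterol (log2 fold change -0.63 ± 0.109 SE, adjusted p = 0.00116). Both genes were lower in every cholesterol library. Unc5b was at 15.6, 17.6 and 17.6 CPM with PBS and 33.2, 29.9 and 26.7 CPM with cholesterol (log2 fold change 0.82 ± 0.089 SE, adjusted p = 5.94e-05), and all cholesterol libraries were higher. The ratio of Unc5b to Dcc in FPKM was 0.983, 1.25 and 1.18 with PBS and 3.39, 3.58 and 2.47 with cholesterol. Unc5a amounted to 14.1, 11.7 and 13.4 CPM with PBS and 10.7, 9.68 and 11.5 CPM with cholesterol (log2 fold change -0.30 ± 0.103 SE, adjusted p = 0.0404). It overlaps Hk3 on the other strand, and its call ended with no filter on low counts (0.0632), on log2(FPKM + 1) (0.0778), on log2(FPKM + 0.1) (0.0789), without PBS replicates 1 and 3 in turn (0.15 and 0.107) and without cholesterol replicates 1 and 2 in turn (0.0842 and 0.109), as adjusted p. Unc5c, the most abundant per length among Dcc and the Unc5 receptors over the 6 libraries, did not pass, at 57.5, 53.5 and 54.8 CPM with PBS and 56.9, 49.5 and 56.8 CPM with cholesterol (log2 fold change -0.023 ± 0.061 SE, adjusted p = 0.795). Unc5d (-0.18, adjusted p = 0.553) and Ntn4, a netrin of basement membranes (0.24, adjusted p = 0.119), did not pass.

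Several related members thus changed their balance, and the ratios of their levels were followed in each library. These pairs were chosen after their values were seen, so the ratios are descriptions. Plxnd1 over Plxna3 was 0.121, 0.117 and 0.128 with PBS and 0.633, 0.718 and 0.509 with cholesterol. Sema6a over Sema5a was 0.467, 0.494 and 0.491 with PBS and 0.919, 0.872 and 0.746 with cholesterol. In no pair did the groups overlap, and with 3 libraries a group an exact permutation test of a single ratio cannot pass a threshold of 0.05.

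**Figure D4:**
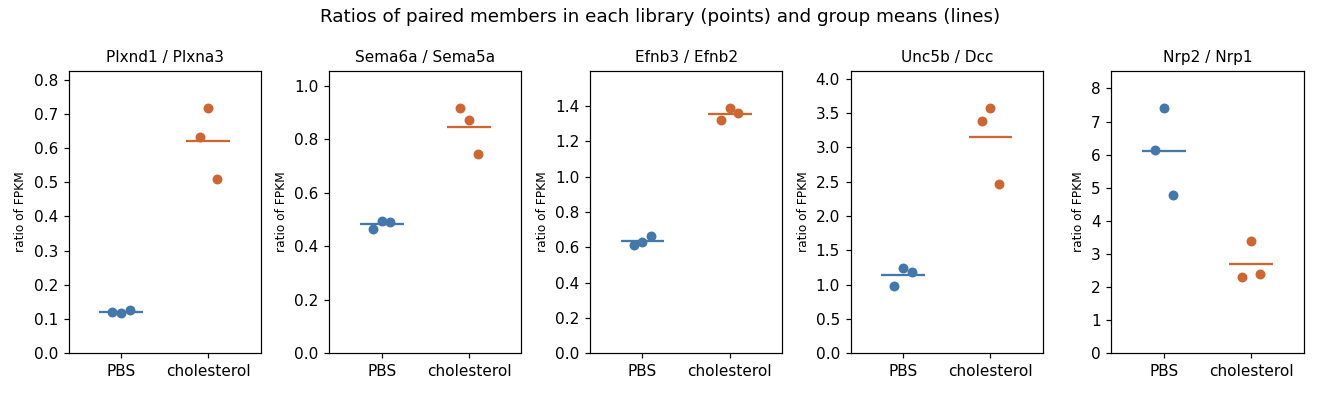
Ratio of the FPKM of paired members in each library (points, blue for PBS and orange for cholesterol) with the mean of each group (line), each panel starting at 0. The cholesterol libraries lie above the PBS libraries in the first 4 panels and below them for Nrp2 over Nrp1.

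Genes that act with or after the guidance receptors were read from the same test. Of 67 such genes, 28 were lower and 11 higher, 58.2% in all against 40.3% of all genes, with a median log2 fold change of -0.10. By direction, 19.7% of all genes were lower and 20.5% higher. With the length correction 25 of the listed genes were lower and 16 higher. Farp2, an exchange factor for Rac bound to plexin A1, fell from 39.9 ± 0.848 to 25.3 ± 0.45 CPM (adjusted p = 1.05e-05, -0.66 on the log2 scale) (SD, n = 3 per group). Srgap1, a GTPase-activating protein of Slit and Robo signalling, fell from 58.7 ± 0.941 to 40.3 ± 2.85 CPM (adjusted p = 4.98e-05, -0.54 on the log2 scale). Trio, an exchange factor that acts after Dcc, fell from 465 ± 6.38 to 355 ± 30.5 CPM (adjusted p = 0.000275, -0.39 on the log2 scale). Dock2, an exchange factor of leukocytes, fell from 28.1 ± 2.66 to 16.01 ± 2.76 CPM (adjusted p = 0.000369, -0.81 on the log2 scale), and in these libraries the microglial markers had a median change of -0.70 on the log2 scale. Rac1 fell by 0.18 on the log2 scale, and Cdc42 (0.055) did not pass.

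Of 11 adaptors and kinases, 5 were lower and 3 higher, where 19.7% of all genes were lower and 20.5% higher. Abl1, a kinase that acts after Robo receptors, rose from 275 ± 9.34 to 356 ± 17.2 CPM (adjusted p = 8.98e-05, 0.37 on the log2 scale) and Cdk5, a kinase of semaphorin 3A signalling, from 36.2 ± 1.57 to 47.5 ± 1.39 CPM (adjusted p = 0.000275, 0.39 on the log2 scale). Gsk3b, another kinase of that pathway, fell from 95.3 ± 4.39 to 75.7 ± 1.46 CPM (adjusted p = 0.000182, -0.33 on the log2 scale), and Lyn, a Src family kinase abundant in myeloid cells, from 86.8 ± 5.27 to 49.7 ± 11.5 CPM (adjusted p = 0.000617, -0.80 on the log2 scale). Fyn, the Src family kinase through which Dcc and other receptors act in oligodendrocytes, fell from 1673 ± 11.6 to 1480 ± 77.1 CPM (adjusted p = 0.00407, -0.18 on the log2 scale). Of 12 co-receptors and adhesion partners, 4 were lower and 2 higher. Rgma, a ligand of neogenin, rose from 30.3 ± 1.18 to 42.4 ± 2.53 CPM (adjusted p = 0.000178, 0.48 on the log2 scale) and the adhesion protein Nrcam from 27.2 ± 0.879 to 35.8 ± 1.97 CPM (adjusted p = 0.000561, 0.40 on the log2 scale). Dscaml1 fell from 103 ± 2.94 to 66.3 ± 9.29 CPM (adjusted p = 0.000181, -0.64 on the log2 scale) and Draxin, an antagonist of netrin signalling, from 49.5 ± 1.82 to 40.7 ± 3.46 CPM (adjusted p = 0.00608, -0.28 on the log2 scale). Of 20 cytoskeletal effectors, 5 were higher and 5 lower. Mical3, of a family that oxidizes actin after plexin activation, rose from 149.8 ± 4.96 to 193 ± 10.6 CPM (adjusted p = 0.000153, 0.36 on the log2 scale). Vasp and Evl, which promote actin filament growth, fell from 69.4 ± 2.84 to 42.4 ± 6.39 CPM (adjusted p = 0.000149, -0.71 on the log2 scale) and from 149.9 ± 2.03 to 123 ± 1.5 CPM (adjusted p = 0.000112, -0.28 on the log2 scale).

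The threshold of 10 counts left out Epha6, Epha8 and Sema3b. Just below it, Epha8 had 22, 20 and 13 counts with PBS and 0, 0 and 0 with cholesterol, Sema3b had 6, 9 and 0 counts with PBS and 8, 0 and 30 with cholesterol and Epha6 had 4, 0 and 0 counts with PBS and 16, 18 and 0 with cholesterol. Just above it, Epha1 had 11, 10 and 9 counts with PBS and 16, 8 and 6 with cholesterol, and Robo4 and Sema3g are given above. Epha8, a receptor of class A ephrins, was at 0 in every cholesterol library, and only its counts are given. Epha1 did not enter the test because of its low counts, and it overlaps Zyx on the other strand.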

How the data were processed

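Poly(A) RNA of 6 libraries was sequenced in pairs after a dUTP second-strand method, per the labels' protocols. The submitters' processing notes name the build rn6 and, without their roles, HISAT2 2.2.1, StringTie 2.1.6, cutadapt 1.9, edgeR and DESeq2. No source used here gives the annotation's release or says if strand entered the counting. Per the file headers, the authors deposited a count (whole numbers) and an FPKM value for each gene and library. Among 12526 genes above 100 counts throughout, count over FPKM was fixed per gene up to 1 factor per library (residual SD 0.001 on the log2 scale), which gave each gene's length.

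The test was edgeR's (version 4.0.16, R 4.3.3; filterByExpr, TMM, glmQLFit and glmQLFTest, two-sided, no replicate term), fitted over 16182 of 20422 genes, with Benjamini-Hochberg adjustment over all of them and a threshold of 0.05. The SE is the log2 fold change divided by the square root of F. The fit was tested on simulated data. Alternatives used DESeq2 1.42.0 and limma 3.58.1. Described were members with a mean of at least 10 counts. Values in every library are given for up to 4 called members per family and direction, for the most abundant member of a family without calls, and for the most abundant members; from the signalling list up to 4 genes per group. Other genes were named after their values were seen. Members and lists were chosen with earlier results of these data known. RefSeq protein sequences were not used here, and some signalling results are not reported here.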

Additional observations from a re-analysis of the deposited data

How the results depend on the processing

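Of the 34 called members, with Robo4 included, 22 kept their call and direction under every alternative that tested them, and none reversed. Leaving out each library in turn gave 10 to 17 higher and 15 to 22 lower members, and DESeq2's Wald test gave 14 and 20. A minimum of 5 FPKM gave 8 higher and 9 lower, because fewer members were tested. Scaling to the library median moved the share of all calls that were higher from 51% to 37.7% and the median of the members from 0.041 to -0.020. The sign of the following uncalled members changed, and the cause was not tested. Ephb1 was -0.020 with scaling to the median. Under quantile normalization Sema6d was 0.050 and Slit2 -0.050. With the length correction Sema6d was 0.056, Unc5c 0.091, Plxna1 0.031 and Slit3 0.051. On FPKM Slit3 was 0.002 with a pseudocount of 1 and 0.005 with 0.1. Over the libraries left out, log2 fold changes ranged from -0.26 to 0.025 for Epha10, -0.65 to 0.058 for Epha2, -0.001 to 0.17 for Ephb2, -0.066 to 0.68 for Efna5, -0.050 to 0.010 for Sema6d, -0.056 to 0.041 for Unc5c, -0.20 to 0.016 for Plxnb3, -0.17 to 1.41 for Sema3g, -0.038 to 0.13 for Slit2 and -0.064 to 0.034 for Slit3. No pairing by replicate number was seen. Deviations of same-numbered libraries correlated at 0.001, -0.037 and -0.026, and 0 of 6 correlated best with their own number. These values cannot show that the samples were unpaired. With the replicate block 14 members were higher and 19 lower. Depth limited the members with few counts, for example Robo3 with an SE of 0.438 against 0.034 for Plxnb2.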
